A study of Mus musculus with 6 samples.

Results

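The genes described here build, decorate and walk along microtubules, and they were followed from pluripotent cells to cultured neurons. A gene belonged to the set if its symbol marked it as an alpha-, beta- or gamma-tubulin, a gamma-tubulin complex protein, a kinesin of the Kif series, a cytoplasmic dynein or a stathmin, or if it was Map1a, Map1b, Map2, Map4, Map6, Mapt, Dcx or Dclk1. Pseudogene symbols were left out. This gave 82 family genes. A further 32 genes were included because they share at least 1 exonic base with a family gene on the opposite strand, which makes 114 of the 57010 genes in the count table. The symbol rule also took in Kif16bos, the antisense RNA of Kif16b, and Kif1bp, a kinesin-binding protein that is no motor.

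The samples were mouse, in 2 groups of 3 libraries, and the labels give all as wild type and untreated. The word empty, which nothing explains, stands in the names of neuron libraries 2 and 3. The ESC group was a line of embryonic stem cells labelled WT ESC (called stem cells below), and the neuron group was primary neurons from cortex taken at embryonic day 16.5 and cultured for 7 days. The libraries, made from polyadenylated RNA, had been collected as reference states for a study of the chromatin gene Rai1, and the question of the comparison is how the states differ. Nothing in the labels says whether replicates were separate cultures, so p-values measure only the spread between these samples, which may be technical.

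Microtubules are hollow polymers of paired alpha- and beta-tubulin, seeded by ring complexes that contain gamma-tubulin. Dividing cells use them to build the spindle, on which mitotic kinesins separate chromosomes. Neurons stop dividing and instead fill axons and dendrites with stable, aligned microtubules that are bundled by structural microtubule-associated proteins such as tau (Mapt) and Map2, and along which transport kinesins and dynein carry cargo.

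Many family genes lie across a gene on the other strand, and the counting setting for strand is not given in the sources used here. The counts of paired genes were distinct. Gm48512 shares 100% of its exonic bases with Kif3c, and had 480, 510 and 447 counts in neurons against 132, 132 and 113 for Kif3c. Whether counts on a gene were reads of its own strand or of the opposite one was not tested. The stretches below show shared bases of 4 pairs, taken from the longest run within coding sequence. They are 119 of 588 shared bases for Kif3c, 31 of 48 for Dync1h1 and all 87 for Dclk1 with Gm42609. Shared bases outside that run are not in capitals. Each line gives bases on the strand of the family gene, 5′ to 3′, within its coding sequence in GENCODE M21 on the GRCm38 genome. Capitals mark bases that are also exonic, as the reverse complement, in the named partner.
Kif3c with Gm48512, capitals at chr12:3367248-3367366, plus strand: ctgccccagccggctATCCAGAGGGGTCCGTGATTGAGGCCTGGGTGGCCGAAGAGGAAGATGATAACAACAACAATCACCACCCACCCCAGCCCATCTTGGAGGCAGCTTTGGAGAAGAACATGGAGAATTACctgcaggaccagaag
Dclk1 with Gm42609, capitals at chr3:55380781-55380867, plus strand: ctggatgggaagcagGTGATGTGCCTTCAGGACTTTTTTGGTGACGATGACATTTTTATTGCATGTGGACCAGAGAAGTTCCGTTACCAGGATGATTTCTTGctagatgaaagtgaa
Kif26b with Gm16564, capitals at chr1:178916706-178916840, the first 135 of 909 shared bases, plus strand: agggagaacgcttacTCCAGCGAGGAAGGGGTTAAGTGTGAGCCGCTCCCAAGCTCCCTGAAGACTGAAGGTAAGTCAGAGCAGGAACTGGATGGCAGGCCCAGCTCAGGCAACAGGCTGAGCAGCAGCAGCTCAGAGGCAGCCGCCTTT
Dync1h1 with Gm17111, capitals at chr12:110665206-110665236, plus strand: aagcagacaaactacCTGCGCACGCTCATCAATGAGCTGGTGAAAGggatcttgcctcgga
With all shared bases counted, printed or not, the shared part was small in the family gene of each pair. It ran from 0.31% of the exonic bases of Dync1h1 to 7.94% of those of Kif3c. On the partner's side, the shared part was 100% of the exonic bases of Gm48512.

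Promoters were read for the lowest called alpha- and beta-tubulin, Tuba1c and Tubb4b, and for Tuba3a, whose start lies inside its partner. The lines give the 250 bases before the annotated start in RefSeq on GRCm38.p6, 5′ to 3′ on the strand of the gene. Capitals mark CCAAT and GGGCGG, searched on both strands (ATTGG and CCGCCC).
Tuba1c, chr15:99029641-99029890, plus strand: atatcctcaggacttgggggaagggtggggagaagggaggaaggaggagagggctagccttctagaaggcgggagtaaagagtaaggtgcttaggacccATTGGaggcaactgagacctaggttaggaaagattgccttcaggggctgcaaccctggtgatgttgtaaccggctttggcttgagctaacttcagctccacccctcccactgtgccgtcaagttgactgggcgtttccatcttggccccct
Tubb4b, chr2:25224703-25224952, minus strand: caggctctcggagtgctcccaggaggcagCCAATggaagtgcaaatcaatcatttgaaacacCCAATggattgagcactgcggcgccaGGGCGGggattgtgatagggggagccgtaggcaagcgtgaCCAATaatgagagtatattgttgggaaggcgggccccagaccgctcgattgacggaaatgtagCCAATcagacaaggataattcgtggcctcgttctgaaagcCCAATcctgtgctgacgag
Tuba3a, chr6:125286082-125286331, minus strand: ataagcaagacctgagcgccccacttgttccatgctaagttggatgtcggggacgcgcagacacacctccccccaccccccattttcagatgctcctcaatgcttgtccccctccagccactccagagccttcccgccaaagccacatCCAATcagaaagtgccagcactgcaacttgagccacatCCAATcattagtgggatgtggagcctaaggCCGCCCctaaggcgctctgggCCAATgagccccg
Tubb4b held 5 matches to CCAAT, Tuba3a 3 and Tuba1c 1. All 250 bases before Tuba3a lie within 1 exon of its partner 4930417O13Rik. RefSeq promoters were matched for 63 family genes, of which 27 held CCAAT and 34 held GGGCGG in any of their promoters. Over 32851 single promoters of this length, 33.8% held CCAAT and 32.7% held GGGCGG. The family figures count genes and the others count promoters, so they are not directly comparable. A match describes letters and says nothing of binding.

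The libraries were shallow, with 1368303 to 1775055 counts in the ESC group and 513425 to 624792 in the neuron group. Values are counts, in the order of replicates 1 to 3, or CPM, counts relative to the library size scaled by trimmed means of M values, and 3 counts equal 2.26 to 2.90 CPM in stem cells and 3.92 to 4.81 CPM in neuron libraries. These floors cover counting error only. Of 10 stem cell markers, 10 fell in a fit of all genes with a count, where 21.2% of all genes were called higher and 19.6% lower, and their sum was 3.92 to 4.81 CPM in neuron libraries. Of 12 neuronal markers 7 rose and 1 fell. Syt1 was at 0 in neuron replicates 1 and 2, and Slc17a7, a vesicular glutamate transporter, fell from 64, 49 and 54 counts to 2, 1 and 0. Other cell types moved with the groups as well, and their part in the results was not tested. Astrocyte markers summed to 4.84 to 9.95 CPM in stem cells and 43.3 to 71.8 in neuron libraries (5 of 8 rose), oligodendrocyte markers to 42.9 to 61.9 and 270 to 299 (5 of 8 rose, 1 fell), and progenitor markers to 41.6 to 45.2 and 76.0 to 119 (2 of 6 rose, 1 fell). The progenitor sum rested on Pax6, with 8, 8 and 4 counts against 61, 41 and 64, and without it was 33.9 to 39.8 CPM in stem cells and 13.1 to 16.03 in neurons. Without Mog the oligodendrocyte sum was 24.1 to 29.9 and 40.1 to 60 CPM. Microglial markers summed to 201 to 266 CPM in stem cells and 130 to 145 in neuron libraries (2 of 6 fell), with C1qa and Tmem119 at 0 in every library, and without Csf1r to 16.3 to 16.6 and 9.62 to 18.3. Mesenchyme and vessel markers summed to 2.26 to 9.67 CPM in stem cells and 1.31 to 4.47 in neuron libraries (1 of 6 fell). The batch label follows the group exactly, which means that those cannot be told apart. In bulk RNA fewer cells of a type and less RNA per cell cannot be told apart.

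Across the 82 family genes, 29 had enough counts to be tested, and 12 of them rose and 11 fell in neurons at an adjusted p under 0.05 in edgeR's quasi-likelihood test. Of all 7150 tested genes 85.6% were called, 47.0% as higher and 38.6% as lower, so the split of the family genes lies near the background and is not a result about them. The median log2 fold change, given throughout as neuron minus ESC, was 0.26 over the tested family genes and 0.37 over all tested genes. The remaining 53 family genes did not pass the filter on low counts, and 6 of them (Tuba3b, Tubal3, Kif12, Kif16bos, Kif28 and Kif2b) were at 0 in every library. Scaling by total counts would raise every log2 fold change by about 0.73, the shift of the median over all genes, and upper-quartile scaling by 0.22. The share of calls that were higher moved from 54.9% to 65.5% over all genes under total counts, and from 52.2% to 59.3% over family genes.

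Family genes with and without an opposite-strand partner are described separately. The 26 genes with shared exonic bases held 86.3% of the family's counts in stem cells and 74.6% in neurons, and Kif3c and Tubgcp4 alone held 41.5% and 35.3%. Their median level was 1.60 CPM per kilobase of exon in stem cells and 1.45 in neurons, against 0.439 and 0.390 for the 56 genes that share no base. Among the 16 tested genes with a partner 4 rose, 7 fell and 5 did not pass, with a median log2 fold change of -0.17, where 41.2% of all tested genes with shared bases were called higher and 43.4% lower. Of the 13 tested genes without a partner 8 rose, 4 fell and 1 did not pass, with a median of 1.50, where 87.4% of all tested genes without shared bases were called, 57.9% as higher and 29.5% as lower. The corresponding medians over all genes were -0.04 with shared bases and 1.52 without, so the same gap between the classes was present over all genes.

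Summed over the family, the level was 3060, 2833 and 3216 CPM in the stem cells and 2122, 2159 and 2177 CPM in the neurons. Neuron libraries were lower on this scale. As a share of all counts the order turned, with 0.228% ± 0.0133 in stem cells (SD, n = 3, as for all values with ±) and 0.262% ± 0.00242 in neurons. Without Kif3c and Tubgcp4 the sums were 1774 ± 154 and 1395 ± 42.6 CPM. By role, the structural microtubule-associated proteins summed to 46.7 ± 9.45 CPM in stem cells and 147 ± 3.13 in neurons, the gamma-tubulin ring genes to 649 ± 53.5 and 822 ± 39.2, and the kinesins to 1906 ± 99.9 and 887 ± 45.7. Alpha-tubulins summed to 193 ± 27.1 and 144 ± 27.0 CPM, beta-tubulins to 163 ± 31.2 and 89.4 ± 1.76, stathmins to 37.4 ± 9.11 and 17.9 ± 1.60, and dyneins to 41.1 ± 4.20 and 43.9 ± 13.4. The groups overlapped for the dyneins, and the lowest stem cell and the highest neuron sum of the alpha-tubulins were both 163 CPM. The other 5 roles did not overlap. As a share of all counts the alpha-tubulins turned direction, from 0.0145% in stem cells to 0.0176% in neurons, and the kinesins, beta-tubulins, stathmins, ring genes and structural proteins did not. On that scale the groups overlapped for the alpha-tubulins, beta-tubulins and stathmins, and not for the other roles. The beta-tubulin share in ESC replicate 2, 0.00957%, lay below every neuron library (0.0107% to 0.0110%).

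**Figure D1:**
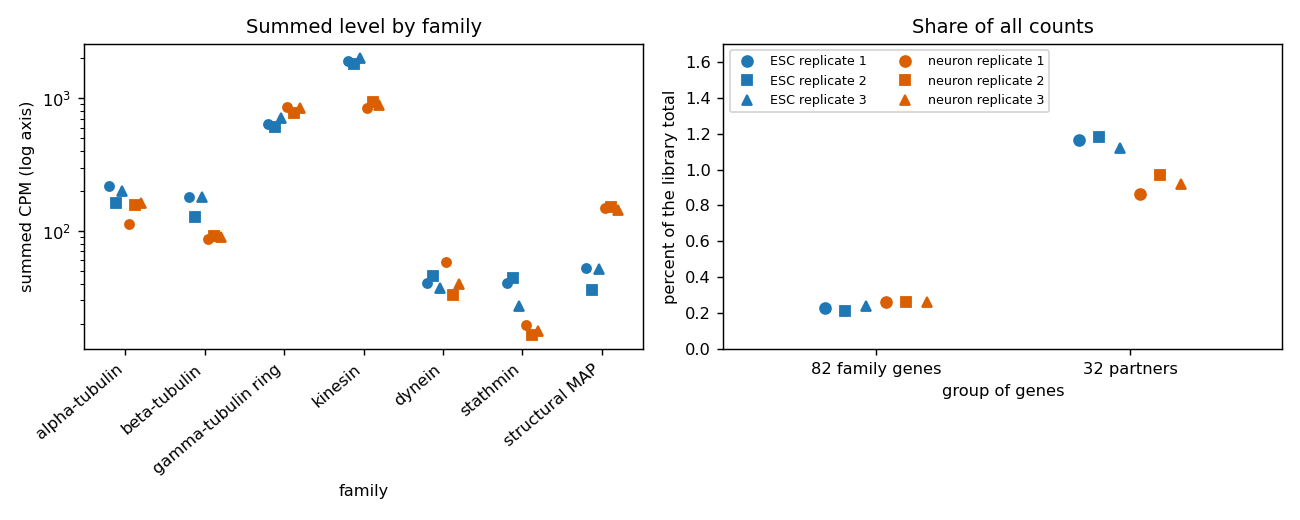
Left, summed CPM of the genes of each role in the 6 libraries (log axis); right, the percent of each library's counts held by the 82 family genes and the 32 opposite-strand partners. Points are libraries, with colour for group and shape for replicate. The structural microtubule-associated proteins lie near 47 CPM in stem cells and 147 CPM in neurons, and the partners hold about 1.16% and 0.916% of the counts.

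**Figure D2:**
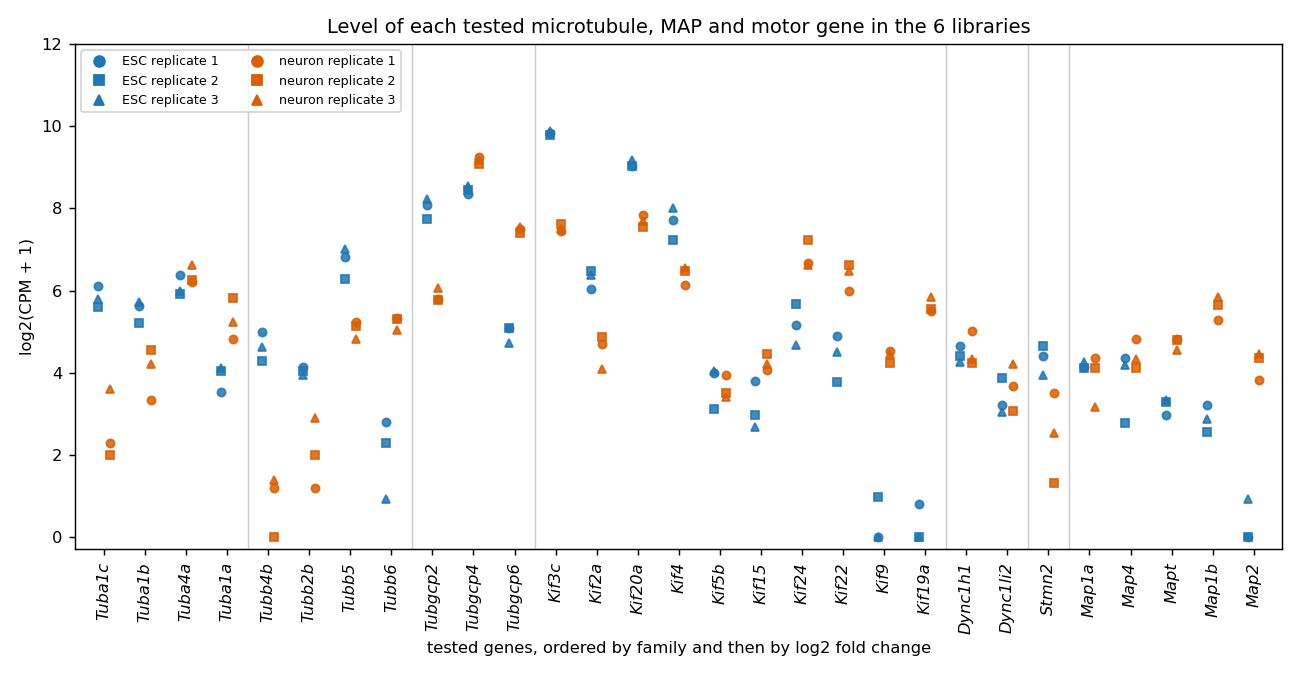
log2(CPM + 1) of each of the 29 tested family genes in the 6 libraries, grouped by role and ordered by fold change within it. ESC and neuron points are separate for the 23 genes that were called and overlap for the 6 that were not.

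Alpha-tubulins split, with 1 of 4 tested genes higher and 2 lower, beside 47.0% and 38.6% of all tested genes. Tuba1a, the alpha-tubulin that dominates in developing neurons, had 14, 16 and 18 counts in stem cells and 21, 37 and 23 in neurons, which is 14.1 ± 3.11 and 39.8 ± 14.1 CPM. The neuron libraries were all above the ESC libraries, and the log2 fold change was 1.50 (SE 0.32, adjusted p = 4.68e-05). Tuba1b, an alpha-tubulin of most cells, went the other way, from 64, 37 and 57 counts to 7, 15 and 11, a log2 fold change of -1.49 (SE 0.31, adjusted p = 3.57e-05). Tuba1c, its widely expressed neighbour on chromosome 15, fell further, from 90, 49 and 60 counts to 3, 2 and 7, a log2 fold change of -3.25 (SE 0.37, adjusted p = 3.9e-10), or -4.01 without neuron replicate 3. These alpha-tubulin genes are near-identical in coding sequence, so counts of single copies are uncertain. Tuba4a did not pass, with 67.8 ± 12.4 CPM in stem cells and 82.3 ± 13.5 in neurons (adjusted p = 0.23). It passed as higher under total counts (adjusted p = 3.82e-05), upper-quartile scaling (0.0303) and a filter on a mean of 10 counts (0.00666). Tuba3a, a testis alpha-tubulin below the filter, had 11, 6 and 14 counts in stem cells and 0 in each neuron library, at least 2.03-fold lower against a floor of 3 counts per library.

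Of 4 tested beta-tubulins 3 fell and 1 rose, beside 38.6% called lower and 47.0% called higher over all tested genes. Tubb5, the main beta-tubulin of dividing cells, had 149, 79 and 141 counts in stem cells and 28, 23 and 17 in neurons, a log2 fold change of -1.68 (SE 0.23, adjusted p = 3.4e-08). Tubb4b, found in most cells and in cilia, had 41, 19 and 26 counts in stem cells and 1, 0 and 1 in neurons, so that its pooled ratio of stem cell to neuron counts, scaled to library size, was 25.6 (95% counting interval 6.86 to 214; adjusted p = 2.89e-08 in edgeR). Tubb2b, a beta-tubulin needed in migrating neurons, also fell, from 22, 16 and 16 counts to 1, 2 and 4, a log2 fold change of -2.15 (SE 0.51, adjusted p = 0.000213), or -2.85 without neuron replicate 3. Tubb6, a minor beta-tubulin, was the exception, with 8, 4 and 1 counts in stem cells and 30, 26 and 20 in neurons, a log2 fold change of 3.25 (SE 0.41, adjusted p = 3.28e-09). Tubb3, the beta-tubulin used as a marker of neurons, did not pass the filter. It had 10, 4 and 8 counts in stem cells and 4, 2 and 1 in neurons, or 6.21 ± 2.03 and 3.27 ± 1.83 CPM, with overlapping groups and an adjusted p of 0.23 in the fit with no filter.

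Sorted by use, the tubulins of proliferating cells (Tuba1b, Tuba1c, Tubb4b, Tubb5 and Tubb6) gave 4 lower and 1 higher of 5 tested. Over all tested genes 85.6% were called, 38.6% as lower and 47.0% as higher, and no test over these lists was made. Of the 6 tubulins known from neurons (Tuba1a, Tuba4a, Tubb2a, Tubb2b, Tubb3 and Tubb4a), 3 were tested, and Tuba1a rose, Tubb2b fell and Tuba4a did not pass. None of the 5 tubulins of testis or blood was tested.

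Of the 7 gamma-tubulin ring genes 3 were tested, with 2 higher and 1 lower, where 85.6% of all tested genes were called. Tubgcp4, a subunit of the full ring, had 429, 361 and 412 counts in stem cells and 463, 364 and 360 in the smaller neuron libraries, or 348 ± 24.99 and 575 ± 31.0 CPM. That was a log2 fold change of 0.72 (SE 0.11, adjusted p = 3.68e-07) with separate groups. Tubgcp6, the largest ring subunit, rose more, from 44, 34 and 28 counts to 138, 113 and 115, a log2 fold change of 2.54 (SE 0.20, adjusted p = 1.13e-14). Tubgcp2, a core subunit of the small gamma-tubulin complex, fell from 356, 221 and 330 counts to 42, 36 and 41, a log2 fold change of -2.17 (SE 0.18, adjusted p = 5.15e-14). All 3 share exonic bases with a gene on the other strand. The gamma-tubulins themselves stayed low, with 1, 0 and 1 counts of Tubg2 in stem cells against 9, 7 and 4 in neurons, and 7, 1 and 7 counts of Tubg1 against 0, 1 and 0. The ring subunits Tubgcp3 (5, 6 and 4 counts against 1, 0 and 2) and Tubgcp5 (1, 2 and 1 against 0, 1 and 0) were low as well.

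Kinesins were the largest family, with 40 symbols, 10 tested, 5 higher and 4 lower. The split lies near that of all tested genes, of which 47.0% were called higher and 38.6% lower. Kif3c, a heavy chain of heterodimeric transport kinesin, had 1216, 913 and 1044 counts in stem cells and 132, 132 and 113 in neurons. It was high in every stem cell library, at 914 ± 30.8 against 183 ± 12.4 CPM, and its log2 fold change was -2.32 (SE 0.12, adjusted p = 3.45e-20). Kif20a, a kinesin of the cleavage furrow, had 695, 535 and 637 counts in stem cells and 176, 125 and 129 in neurons, a log2 fold change of -1.37 (SE 0.12, adjusted p = 1.17e-12). Kif2a, which shortens microtubule ends, fell from 86, 91 and 91 counts to 19, 19 and 10, a log2 fold change of -1.74 (SE 0.26, adjusted p = 1.16e-07). Kif4, a chromosome-bound motor of the spindle midzone and the last of the genes that fell, went from 205 ± 53.2 to 83.3 ± 12.5 CPM.

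The kinesins that rose included motors of cilia. Kif19a, which sets the length of cilia, had 1, 0 and 0 counts in stem cells and 34, 31 and 35 in neurons, a pooled ratio of 168 (95% counting interval 29.5 to 6710). Kif9, found in motile cilia, had 0, 1 and 0 counts against 17, 12 and 13, a pooled ratio of 70.7 (interval 12.01 to 2856). Both were near 0 in stem cells, so their fitted log2 fold changes, 6.85 and 5.59, move with single counts: 8.32 for Kif19a without ESC replicate 1, and 4.99 or 7.17 for Kif9 without ESC replicate 1 or 2. Kif22, a chromosome-arm motor, had 38, 13 and 24 counts in stem cells and 48, 65 and 55 in neurons, a log2 fold change of 1.93 (SE 0.26, adjusted p = 2.15e-08). Kif24, a centriolar kinesin that restrains cilium assembly, rose from 36.5 ± 13.0 to 116 ± 28.8 CPM (adjusted p = 4.89e-08). Kif15, a spindle motor, had 17, 7 and 6 counts against 12, 14 and 11 and a log2 fold change of 1.05 (SE 0.40, adjusted p = 0.0142). This call was lost without ESC replicate 2 (adjusted p = 0.0584), without ESC replicate 3 (0.115) and without neuron replicate 2 (0.0868), with no filter (0.0724) and in DESeq2 (0.0635). Kif5b, the conventional kinesin of most cells, did not pass, with 12.7 ± 4.32 and 11.5 ± 2.53 CPM (adjusted p = 0.728).

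Most mitotic and transport kinesins lay under the filter. In the fit of all genes with a count, 40.8% of genes were called, 21.2% as higher and 19.6% as lower. There 8 of the 11 mitotic kinesins fell and 1 rose, and 3 of the 17 transport kinesins rose and 2 fell. Of the 4 mitotic kinesins that passed the filter, 2 were called higher and 2 lower in the main fit. Of the 2 transport kinesins that passed it, 1 was called lower. Kif11, the motor that pushes spindle poles apart, had 14, 8 and 14 counts in stem cells and 0, 1 and 0 in neurons, a pooled ratio of 21.4 (interval 3.60 to 868). Kif14, a cytokinesis motor, had 14, 9 and 7 counts and then 0 in each neuron library, at least 1.94-fold lower. Among neuronal motors, Kif1a, the carrier of synaptic vesicle precursors, had 0 counts in each stem cell library and 7, 6 and 3 in neurons, at least 2.91-fold higher. Kif5c, a neuronal conventional kinesin, had 1, 0 and 0 counts against 10, 5 and 2, a pooled ratio of 28.6 (interval 4.48 to 1195). Its relative Kif5a did not separate the groups, with 10, 8 and 13 counts against 6, 4 and 11 (adjusted p = 0.957 in edgeR with no filter).

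Dyneins gave no call: 2 of 7 genes were tested. Dync1h1, the heavy chain of the retrograde motor, had 32, 21 and 20 counts in stem cells and 24, 12 and 12 in neurons, or 20.8 ± 3.03 and 22.8 ± 7.40 CPM (log2 fold change 0.14, SE 0.32, adjusted p = 0.677). Its sign turned without ESC replicate 3 (-0.06), without neuron replicate 1 (-0.18) and with no filter (-0.02). Dync1li2, a light intermediate chain, was at 9.69 ± 3.38 and 12.3 ± 5.11 CPM (adjusted p = 0.448). Under total counts both passed as higher, Dync1h1 at 0.87 (adjusted p = 0.0126) and Dync1li2 at 1.07 (0.0211). At these counts a small difference was not detectable.

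Stathmins bind free tubulin and destabilise microtubules. Stmn2, the neuronal stathmin of growing axons, had 27, 25 and 16 counts in stem cells and 8, 1 and 3 in neurons, a log2 fold change of -1.73 (SE 0.46, adjusted p = 0.000742), or -2.62 without neuron replicate 1. Its libraries did not overlap, and the ESC group was the higher one. Stmn1, abundant in dividing cells, had 9, 10 and 6 counts against 0, 4 and 1, below the filter, with an adjusted p of 0.0452 in the fit without one.

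The structural microtubule-associated proteins had no lower call, with 3 higher and 2 not past the threshold of 5 tested. Over all tested genes 47.0% were called higher and 38.6% lower. In the fit with no filter 6 of the 8 structural proteins were higher, beside 21.2% of all genes. Map2, which bundles microtubules in dendrites, had 0, 0 and 1 counts in stem cells and 10, 13 and 13 in neurons, a pooled ratio of 60.6 (interval 10.2 to 2458). The fitted log2 fold change of 5.38 (SE 0.68, adjusted p = 3.6e-09) became 4.77 without ESC replicate 1 and 6.91 without ESC replicate 3. Map1b, an early axonal protein, rose from 11, 5 and 7 counts to 29, 33 and 35, a log2 fold change of 2.81 (SE 0.34, adjusted p = 1.11e-09). Mapt, which encodes tau, rose from 9, 9 and 10 counts to 21, 18 and 14, a log2 fold change of 1.65 (SE 0.36, adjusted p = 6.68e-05). For all 3 each neuron library lay above each stem cell library in CPM. Map1a, a structural protein of mature dendrites, was at 17.0 ± 0.923 and 14.7 ± 5.97 CPM (adjusted p = 0.637), and its sign turned without neuron replicate 3. Map4, the form of most non-neuronal cells, was at 14.2 ± 7.36 and 21.01 ± 5.72 CPM (adjusted p = 0.17), and passed as higher under total counts (0.00228) and a filter on a mean of 10 counts (0.0286).

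The other 3 genes of this role had at most 1 count in any stem cell library. Dcx, the microtubule binder of migrating neurons, had 1, 0 and 0 counts in stem cells and 7, 6 and 3 in neurons, a pooled ratio of 26.9 (interval 4.18 to 1129). Map6, which protects microtubules from cold, had 1, 0 and 0 counts against 6, 4 and 5, a pooled ratio of 25.2 (interval 3.88 to 1062). Dclk1, a kinase related to Dcx, had 0 in each stem cell library and 4, 5 and 3 in neurons, at least 2.22-fold higher. For all 3 each neuron library lay above each stem cell library.

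**Figure D3:**
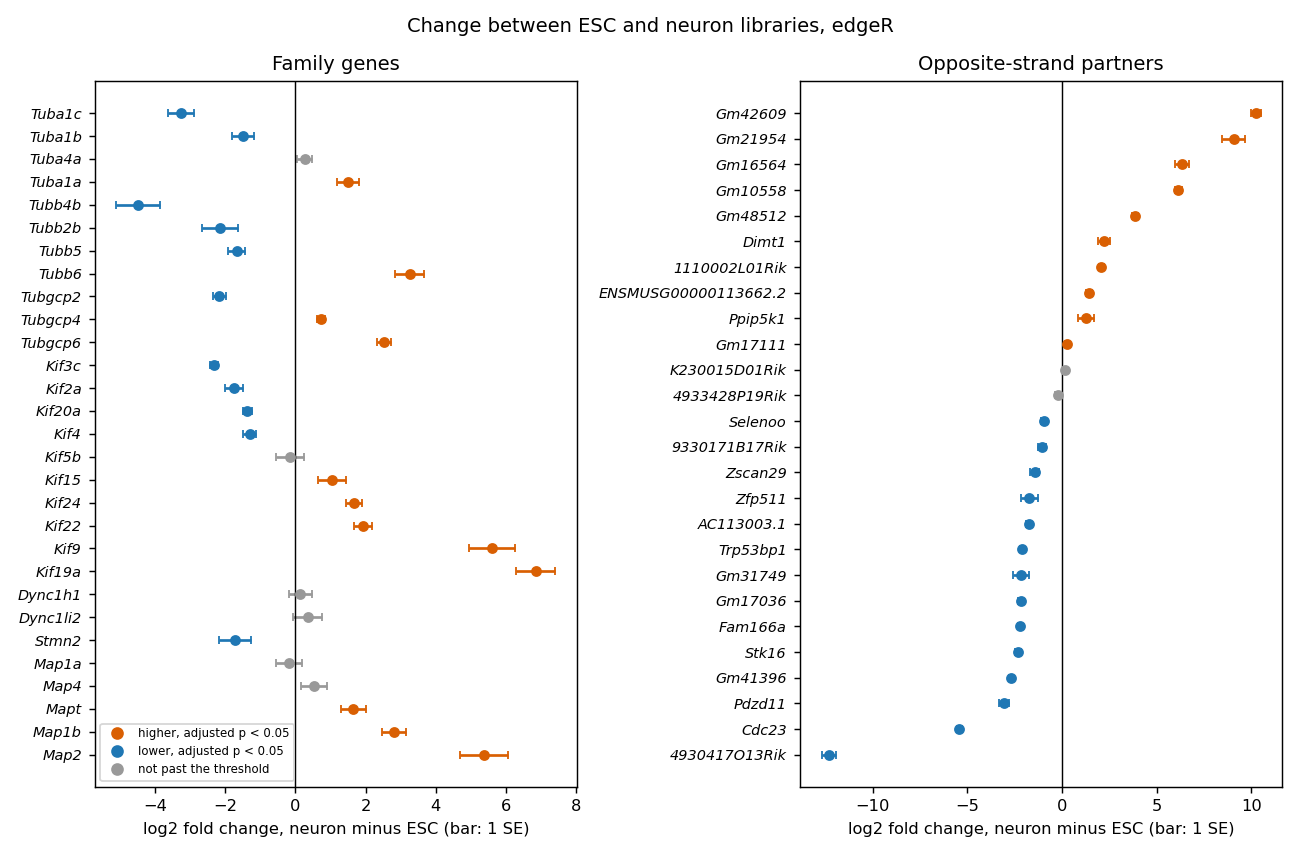
log2 fold change, neuron minus ESC, with 1 SE, of the 29 tested family genes (left, by role) and the 26 tested partners (right, by size) from edgeR. Orange and blue points passed an adjusted p of 0.05. Family genes run from -4.48 (Tubb4b) to 6.85 (Kif19a), and partners from -12.33 (4930417O13Rik, a fitted value against 0 counts in neurons) to 10.23 (Gm42609).

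**Figure D4:**
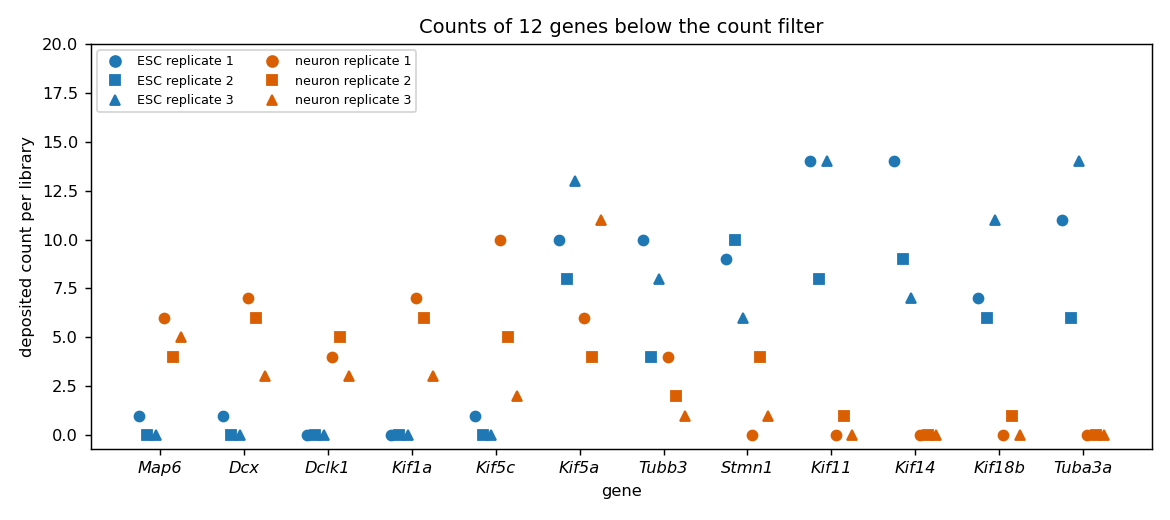
Deposited counts in the 6 libraries of 12 family genes below the count filter, chosen after their values were seen. Map6, Dcx, Dclk1, Kif1a and Kif5c have at most 1 count in any stem cell library and 2 to 10 in each neuron library, while Kif11, Kif14, Kif18b and Tuba3a have at most 1 in any neuron library.

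Ranked by length-corrected counts, the family was led by genes with a partner and not by the tubulins. Whether counts on these genes were reads of their own strand was not tested. In stem cells, Kif20a (124.3 ± 7.50 CPM per kilobase) and Kif3c (123.5 ± 4.15) did not differ beyond their spread. Tubgcp2 (65.4 ± 10.8), Tubgcp4 (41.5 ± 2.98) and Kif4 (37.2 ± 9.65) came next, the last of them within its spread of Tubb5 (31.7 ± 7.89), the first gene in that order with no partner. In neurons the order was Tubgcp4 (68.4 ± 3.69), Kif20a (47.9 ± 5.01), Kif3c (24.8 ± 1.67), Tuba4a (22.2 ± 3.64) and Tuba1a (22.1 ± 7.82), of which the last 3 lay within their spread. Map2 stood at 1.08 ± 0.251 CPM per kilobase in neurons, Tubb3 at 1.75 ± 0.977 and Mapt at 3.39 ± 0.361.

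The partners on the opposite strand held more counts than the family genes. Whether these counts were reads of the partner's own strand was not tested. Their median level was 49.7 CPM per kilobase in stem cells and 22.8 in neurons, and in 11 of 32 pairs the family gene had fewer counts than its partner in every library, against 3 pairs with more. The pairs comprised 10 head to head, 10 tail to tail and 12 with one gene inside the other, with 11 to 2617 shared bases (median 244). By GENCODE type 16 partners were antisense genes and 13 protein-coding. Of 26 tested partners 10 rose, 14 fell and 2 did not pass, with a median log2 fold change of -1.02. Their 92.3% called stands beside 84.6% of all tested genes with shared bases. Of those genes 41.2% were called higher and 43.4% lower, with a median log2 fold change of -0.04. Summed, the partners held 15396 ± 357 CPM in stem cells and 7538 ± 500 in neurons. Gm41396, opposite Tuba1b, made up 40.5% of partner counts in stem cells and 12.7% in neurons.

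Several partners were close to on or off. Gm42609, an antisense gene inside Dclk1, had 0, 1 and 1 counts in stem cells and 669, 580 and 522 in neurons, a pooled ratio of 1490 (interval 412 to 12310). Its fitted log2 fold change was 10.23, or 9.56 without ESC replicate 1. Gm21954, also opposite Dclk1, had 0 in each stem cell library and 65, 42 and 44 in neurons, at least 27.7-fold higher. Dclk1 itself carried 0.67% ± 0.16 of the counts of the first pair in neurons. Gm16564, the antisense gene of Kif26b, rose from 0, 2 and 3 counts to 86, 111 and 67, a log2 fold change of 6.34 (SE 0.39, adjusted p = 3.75e-17), or 5.62 without ESC replicate 1. Gm10558, inside Map2, rose from 25, 12 and 12 counts to 759, 741 and 579, a log2 fold change of 6.15 (SE 0.17, adjusted p = 1.06e-28). In the other direction, 4930417O13Rik, whose exon covers the Tuba3a promoter printed above, had 1051, 627 and 775 counts in stem cells and 0 in each neuron library, at least 159-fold lower.

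Kif3c and its partners moved apart. Gm48512, whose exonic bases all lie in Kif3c exons, had 76, 46 and 46 counts in stem cells and 480, 510 and 447 in neurons, a log2 fold change of 3.86 (SE 0.15, adjusted p = 3.31e-24). 1110002L01Rik, which shares 2617 bases with the end of Kif3c, rose from 140 ± 23.9 to 587 ± 55.2 CPM, a log2 fold change of 2.06 (SE 0.13, adjusted p = 6.79e-17). Kif3c took 95.03% ± 0.84 of the counts of its pair with Gm48512 in stem cells and 20.8% ± 0.72 in neurons. The Kif2a pair went the same way, with Dimt1, a ribosomal RNA methylase, rising from 11.5 ± 6.40 to 56.1 ± 12.3 CPM (adjusted p = 4.27e-08) while Kif2a fell.

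The pairs of Tubgcp4 and Tubgcp6 moved apart in the reverse sense. Trp53bp1, a DNA break repair factor that overlaps the end of Tubgcp4 by 2130 bases, fell from 1073, 879 and 917 counts to 127, 142 and 121, a log2 fold change of -2.13 (SE 0.12, adjusted p = 1.17e-18), while Tubgcp4 rose. Tubgcp4 took 29.6% ± 1.28 of the counts of this pair in stem cells and 75.1% ± 3.28 in neurons. Zscan29, a zinc finger gene at its other end, fell with a log2 fold change of -1.45 (SE 0.24). Selenoo, a mitochondrial selenoprotein opposite Tubgcp6, fell with a log2 fold change of -0.97 (SE 0.15, adjusted p = 1.54e-07), a call lost under total counts (adjusted p = 0.126). Opposite Kif22, Gm31749 fell from 24.4 ± 5.35 to 5.37 ± 0.979 CPM.

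In other pairs both genes fell. Cdc23, a subunit of the anaphase-promoting complex that overlaps the end of Kif20a, had 3425, 2897 and 2713 counts in stem cells and 44, 47 and 33 in neurons, a log2 fold change of -5.44 (SE 0.13, adjusted p = 2.87e-30). Kif20a took 17.2% ± 1.73 of the counts of this pair in stem cells and 77.4% ± 4.13 in neurons. Gm41396 had 8443, 6219 and 6980 counts against 617, 738 and 613, a log2 fold change of -2.70 (SE 0.10, adjusted p = 4.51e-24). Pdzd11, a PDZ-domain gene opposite Kif4, fell with a log2 fold change of -3.07 (SE 0.25) and Fam166a, opposite Tubb4b, with -2.24 (SE 0.12). Zfp511, a zinc finger gene that starts back to back with Tubgcp2, had 36, 38 and 34 counts against 7, 0 and 12, a log2 fold change of -1.75 (SE 0.45), or -2.69 without neuron replicate 3.

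The rest of the tested partners lay opposite genes that were not called or not tested. Stk16, a Golgi kinase opposite Tuba4a, fell from 353 ± 6.52 to 69.8 ± 1.13 CPM. Opposite Kif5b, Gm17036 fell from 717 ± 72.4 to 157 ± 12.6 CPM and AC113003.1 from 589 ± 48.6 to 173 ± 57.2. 9330171B17Rik, inside Kif7, fell with a log2 fold change of -1.07 (SE 0.21), a call lost under total counts (adjusted p = 0.132). Among those that rose, ENSMUSG00000113662.2, at the start of Dync1h1, went from 218 ± 66.7 to 588 ± 49.1 CPM. Gm17111, inside Dync1h1, had 742 ± 46.8 and 883 ± 59.9 CPM (log2 fold change 0.25, adjusted p = 0.0245), a call lost without any 1 of the ESC replicates or without neuron replicate 2 or 3 (adjusted p 0.0785 to 0.493). Ppip5k1, an inositol pyrophosphate kinase opposite Map1a, had 14, 8 and 4 counts against 14, 16 and 7 (log2 fold change 1.25, adjusted p = 0.00612), a call lost without ESC replicate 3 (0.0755) or neuron replicate 2 (0.0845). K230015D01Rik, opposite Dync1li2, and 4933428P19Rik, opposite Kif1bp, did not pass (adjusted p = 0.204 and 0.103). K230015D01Rik passed as higher under total counts (adjusted p = 1.59e-08), upper-quartile scaling (0.00406) and a filter on a mean of 10 counts (0.000175). 4933428P19Rik passed as higher under total counts (0.00125), and as lower with no filter (0.0257) or without ESC replicate 2 (0.0278) or 3 (0.0214).

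**Figure D5:**
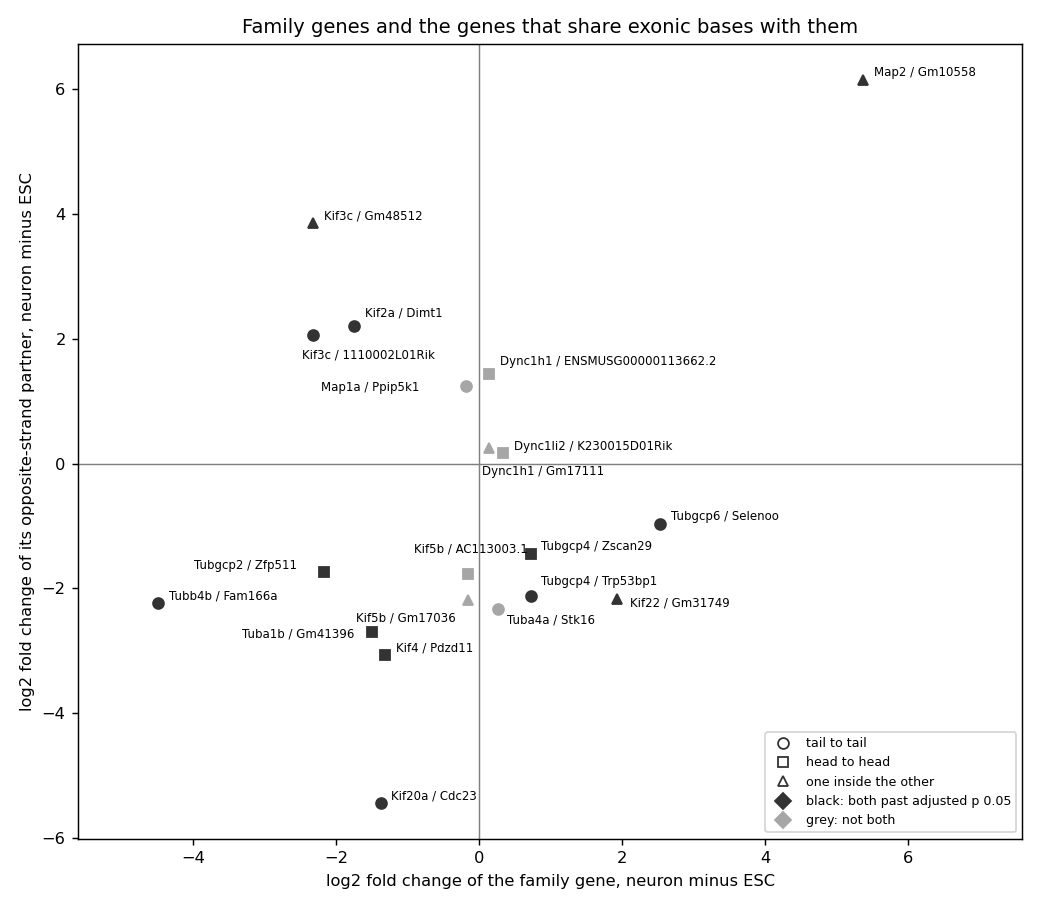
log2 fold change of the partner (y axis) against that of the family gene (x axis), neuron minus ESC, for the 20 pairs with both genes tested. Shape gives the arrangement, and black points have both genes past an adjusted p of 0.05. Of the 13 black points 6 have the same sign on both axes and 7 opposite signs.

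Direction within pairs was mixed. Of 20 pairs with both genes tested, 11 moved the same way, or 55.0%, beside 58.5% of the 1536 such pairs in the whole table. Of 13 pairs with both genes called, 6 moved the same way and 7 opposite ways, or 46.2% the same, beside 63.0% of the 1048 such pairs in the whole table. Tail to tail pairs gave 2 of 6 the same, head to head pairs 3 of 4, and pairs with one gene inside the other 1 of 3. In all, 6 family genes have 2 partners each, so these pairs are not independent, and no test of the difference was made.

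Of 90 other microtubule genes, such as katanins, end-binding proteins, tubulin cofactors and dynactin, 26 were tested. Of these, 9 were higher and 11 lower (76.9% called), with a median log2 fold change of -0.44. Over all tested genes 85.6% were called, 47.0% as higher and 38.6% as lower, with a median of 0.37. The share of higher calls was 45.0%, or 57.1% under total counts, beside 54.9% and 65.5% over all genes. Mast1, a microtubule-associated kinase, fell from 1262 ± 67.2 to 21.7 ± 6.28 CPM, a log2 fold change of -5.87 (SE 0.16, adjusted p = 1.3e-28), and Kifc2, a minus-end kinesin, from 571 ± 32.4 to 16.5 ± 2.93 CPM. Tbcb, a tubulin-folding cofactor, had 488, 337 and 371 counts in stem cells and 9, 23 and 11 in neurons (log2 fold change -4.03, or -4.63 without neuron replicate 2), and Klc1, a kinesin light chain, fell with a log2 fold change of -2.91 (SE 0.24). Map1s, a relative of Map1a and Map1b, had 23, 18 and 18 counts in stem cells and 0 in each neuron library, at least 3.87-fold lower. The highest changes were those of Ttll11, a tubulin polyglutamylase (0, 3 and 0 against 8, 7 and 6 counts, pooled ratio 11.8, interval 3.52 to 61.7), Map7, a kinesin activator (3.32, SE 0.46), Hook1, a dynein adaptor (3.20, SE 0.53), Kifc3 (2.40, SE 0.43) and Eml4 (2.33, SE 0.43). Without neuron replicate 1, 14 of these genes were called higher in place of 9.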

How the data were processed

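RNA of 3 ESC and 3 neuron libraries had been sequenced as paired ends, from polyadenylated molecules, per the labels' protocols. The authors deposited their counts, whole numbers that were not normalized, in 1 table that also gives positions and exonic length. Its column names are those of STAR alignments, per the file headers, and its layout is that of featureCounts. The submitters' processing notes name cutadapt, STAR, RSEM and the GRCm39 (mm39) genome, with no versions. The strand setting, and how reads with several matches were handled, are not given in the sources used here. Positions are not converted.

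Columns were matched by library name and groups taken from titles. Symbols were found by identifier in GENCODE M21 for 91.3% of genes, and 65 shared symbols were replaced by identifiers. Exons on opposite strands were intersected, with a minimum of 1 shared base. Genes passing filterByExpr (minimum count 10) were fitted in edgeR 4.0.16 (R 4.3.3) with TMM scaling, estimateDisp, robust glmQLFit and glmQLFTest, over all 6 libraries with no covariate. P-values were adjusted by Benjamini-Hochberg over all 7150 tested genes, with a threshold of 0.05. Ratios of pooled counts carry exact 95% intervals, which cover counting error only. A fold against a group at 0 is a bound at 3 counts per library. On simulated counts for 6117 genes, 97.4% of 189 genes changed 4-fold were called, and 5.15% of calls were unchanged genes. The simulation changed few genes, drawn as many up as down, whereas 85.6% of tested genes were called in the data. It therefore cannot give the error rate for these data. No library was a copy of another (chi-square per degree of freedom 1.31 to 4.16 between replicates).

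The family genes, the lists and the rule for named genes were chosen with earlier results of these data known. The rule named 13 textbook genes, every tested partner, and up to 3 genes in each direction per role, or 5 for the other microtubule genes. Tuba3a, Tubg1, Tubg2, Kif14, Kif18b, Map6, Dclk1, Tubgcp3 and Tubgcp5 were named after their values were seen, as were the markers left out of sums (Pax6, Mog and Csf1r). The alternatives were 3 other scalings, 2 other filters, a replicate block, DESeq2 1.42.0, limma-voom (limma 3.58.1), leaving out each replicate, genes with no shared exonic base, and a minimum of 100 shared bases.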

Additional observations from a re-analysis of the deposited data

How the results depend on the processing

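With no filter, 6124 genes were called higher and 5638 lower over all genes, 20 and 21 of the family, and 20 of the other microtubule genes lower. Restricted to genes that share no exonic base, where fewer genes could be tested, these calls were 1067 and 883 over all genes, 7 and 4 of the family, and 3 and 5 of the other microtubule genes. Scaling by total counts gave sums of 2279 CPM in ESC and 2617 in neurons for the family, which turned the direction, and 11558 and 9161 for the partners. Partners with at least 100 shared bases summed to 7602 and 4717 CPM. Leaving out each replicate gave 8 to 14 higher calls among the other microtubule genes, 13 to 16 higher and 8 to 12 lower in the family, and 8 to 10 higher and 13 to 15 lower among partners.

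Among the 71 named tested genes signs turned in 5, none of which was called. The log2 fold change of 4933428P19Rik was 0.49 under total counts (adjusted p = 0.00125 in edgeR) and 0.13 under a filter on a mean of 10 counts. Kif5b was at 0.57 under total counts, 0.062 under upper-quartile scaling and 0.21 under that filter, and Map1a at 0.54, 0.0305 and 0.18. With no filter Dync1h1 was at -0.0184. With each replicate left out, Dync1h1 ran from -0.18 to 0.23, Dync1li2 from -0.00878 to 0.53 and Map1a from -0.46 to 0.0539. The cause was not tested. DESeq2 size factors, limma-voom and the replicate block kept all 71 named tested genes on their side of the threshold, and the DESeq2 Wald test ended 2 calls (Kif15 and Gm17111).

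Replicate numbers are shared by the titles of the groups. With the replicate number as a block the family gave 12 higher and 11 lower calls, as without it, and the partners 10 and 14. Same-numbered libraries did not deviate together (r = 0.0189, 0.00394 and -0.0223 across genes), so the numbers were not taken as pairs.

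Depth is a limit, since 53 of the 82 family genes did not reach the filter and 3 counts in a neuron library are 3.92 to 4.81 CPM.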

Other observations

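Genes on the opposite strand of the other microtubule genes numbered 33, of which 30 were tested, with 10 higher, 9 lower and 11 not past the threshold in edgeR. Marf1, which regulates meiosis in oocytes, fell from 524, 377 and 451 counts in stem cells to 15, 17 and 17 in neurons, a log2 fold change of -4.02 (SE 0.19, adjusted p = 1.21e-21). Rccd1 fell from 2533, 1824 and 2150 counts to 65, 121 and 88, a log2 fold change of -3.80 (SE 0.17), and Gm20470 from 399 ± 13.7 to 63.9 ± 10.9 CPM (SD, n = 3). Among those that rose, Gm16596 went from 7, 5 and 4 counts to 149, 146 and 126, a log2 fold change of 5.43 (SE 0.26), and Gm42884 from 12, 6 and 8 counts to 161, 131 and 146, a log2 fold change of 4.81 (SE 0.24). Dnase2a, a lysosomal nuclease, rose from 228 ± 71.8 to 1174 ± 76.9 CPM. The groups did not overlap in any of these 6 genes. Called genes made up 84.6% of those tested that share bases across strands.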
